A study of Homo sapiens with 6 samples.

Results

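The subject of the comparison is a group of 10 enzyme genes that reduce or oxidise steroids and other carbonyl compounds, examined in DU145 cells with and without taraxasterol (TAX). The genes were taken by symbol from the deposited tables of 23062 identifiers and are the aldo-keto reductases AKR1C1, AKR1C2, AKR1C3, AKR1B1 and AKR1B10, the 17-beta-hydroxysteroid dehydrogenases HSD17B4, HSD17B10 and HSD17B12, and the 5-alpha reductases SRD5A1 and SRD5A3. All 10 symbols were found in each library. DU145 cells come from a brain metastasis of human prostate cancer and are labelled wild type. The 3 control cultures were kept in medium for 48 h, and the 3 TAX cultures received the plant triterpene TAX at its IC50 dose in these cells, 56 µM, for 48 h. Both groups grew in MEM with serum. The stock of TAX was made in DMSO, and whether the control medium held DMSO as well is not given in the sources used here, so effects of the solvent and of TAX cannot be told apart. The samples are cultures of a single cell line, and nothing in the labels says how independently the 3 cultures of a group were grown, so p-values measure only the spread between these libraries.

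Aldo-keto reductases of the AKR1 family use NADPH to turn ketones and aldehydes into alcohols. In the prostate, AKR1C3 forms testosterone from androstenedione, 5-alpha reductases turn testosterone into the stronger androgen dihydrotestosterone, and AKR1C2 removes dihydrotestosterone by reducing its 3-keto group. Several enzymes named for a steroid reaction have other main tasks, since HSD17B4 works in peroxisomal fatty acid oxidation, HSD17B12 in fatty acid elongation, HSD17B10 in mitochondria and SRD5A3 in making dolichol for protein glycosylation.

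The marker genes of the cell line were checked first. The epithelial markers KRT8, KRT18, KRT19, EPCAM and CDH1 lay between 40.7 and 173 FPKM in all 6 libraries, while KRT5 was listed at 0. FPKM is the number of fragments of a gene divided by gene length and library depth, and the deposited values were taken to be in this unit, which the files do not name. KLK2 and KLK3, genes of secreted prostate proteases, were listed at 0 in all 6. The fibroblast markers summed to 1.94 to 2.12 FPKM in control and 1.495 to 1.58 FPKM in TAX libraries, most of it from COL1A1, and COL1A2 was listed at 0. The immune markers summed to at most 0.419 FPKM and the endothelial markers to at most 0.0368 FPKM. The summed epithelial markers ranged from 428 to 545 FPKM in control and from 555 to 606 FPKM in TAX libraries, and the part of the marker differences in the results was not tested. In bulk RNA, fewer cells that express a gene and less RNA per cell cannot be told apart. Summed FPKM was 322483 to 363724 per library, 3997 to 4798 identifiers were listed at 0, and the number of reads behind a value is unknown.

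The 3 AKR1C genes are neighbours on chromosome 10 and are nearly alike in sequence, which bears on how reads are shared between them. In GENCODE 29 (GRCh38), AKR1C1 (ENSG00000187134.13) lies at chr10:4963253-4983283 on the plus strand, AKR1C2 (ENSG00000151632.17) at chr10:4987400-5018031 on the minus strand and AKR1C3 (ENSG00000196139.13) at chr10:5035354-5107686 on the plus strand. Their coding sequences are each 972 bases long. AKR1C1 and AKR1C2 differ at 19 of these bases and are 98.0% identical, AKR1C1 and AKR1C3 are 91.5% identical, and AKR1C2 and AKR1C3 are 91.0% identical. The stretch in which AKR1C1 and AKR1C2 differ most, coding bases 43 to 162 counted from the start codon, is shown from the GENCODE transcripts, with capitals at the 21 of 120 positions where the 3 genes are not all the same.
AKR1C1: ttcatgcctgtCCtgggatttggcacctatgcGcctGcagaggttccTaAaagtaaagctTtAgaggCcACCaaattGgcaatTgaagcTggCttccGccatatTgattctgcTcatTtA
AKR1C2: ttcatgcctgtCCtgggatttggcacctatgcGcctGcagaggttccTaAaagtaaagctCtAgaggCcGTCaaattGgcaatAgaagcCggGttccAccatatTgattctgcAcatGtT
AKR1C3: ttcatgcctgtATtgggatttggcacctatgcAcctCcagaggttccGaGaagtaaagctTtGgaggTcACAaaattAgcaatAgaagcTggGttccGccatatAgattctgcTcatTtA
Within this stretch AKR1C1 and AKR1C2 differ at 10 positions, AKR1C1 and AKR1C3 at 13, and AKR1C2 and AKR1C3 at 19. Over the whole coding sequence the first pair has runs of up to 189 identical bases. Of all stretches of 100 bases in annotated AKR1C1 transcripts, 16.7% also occur in transcripts of another gene, almost all of them in AKR1C2. For AKR1C2 the share is 23.1%, and for AKR1C3 it is 1.75%. How the submitters divided such reads is not given in the sources used here, so the split between AKR1C1 and AKR1C2 is uncertain, while the value of AKR1C3 rests mostly on sequence of its own.

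**Figure D1:**
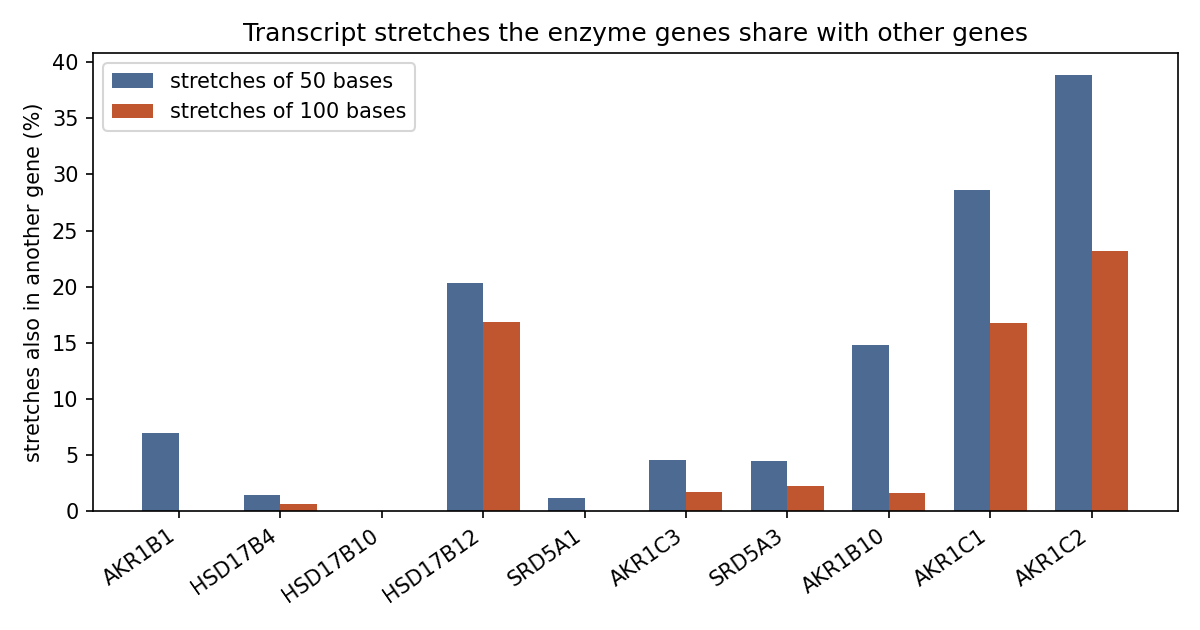
The bars give the percentage of distinct stretches of 50 bases (blue) or 100 bases (orange) in the annotated transcripts of each enzyme gene that also occur in transcripts of another gene name, with the genes ordered by control level. At 100 bases the shares were 23.1% in AKR1C2, 16.9% in HSD17B12, 16.7% in AKR1C1 and at most 2.24% in the other genes.

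The likeness extends upstream of the genes. RefSeq start sites (GRCh38.p14) were matched by symbol for 8 of the 10 genes, all but AKR1B10 and HSD17B12. The 250 bases before the start are shown for the AKR1C genes and for AKR1B1, because AKR1C3 and AKR1B1 are the genes of the 10 in which all TAX values lay below all control values. Capitals mark the letters CCAAT on either strand, a motif chosen after the sequences were seen.
AKR1C1, chr10:4963165-4963414, plus strand: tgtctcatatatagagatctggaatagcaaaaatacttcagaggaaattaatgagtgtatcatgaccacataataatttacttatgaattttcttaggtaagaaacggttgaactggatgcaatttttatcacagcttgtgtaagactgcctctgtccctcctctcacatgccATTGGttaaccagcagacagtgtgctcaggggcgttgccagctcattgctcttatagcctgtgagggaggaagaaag
AKR1C2, chr10:5003858-5004107, minus strand: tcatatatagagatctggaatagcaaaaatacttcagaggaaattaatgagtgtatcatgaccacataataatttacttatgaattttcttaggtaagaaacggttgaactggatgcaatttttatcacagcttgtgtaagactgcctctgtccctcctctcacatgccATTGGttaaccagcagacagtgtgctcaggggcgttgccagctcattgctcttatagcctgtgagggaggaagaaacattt
AKR1C3, chr10:5048531-5048780, plus strand, the first of its 2 entries: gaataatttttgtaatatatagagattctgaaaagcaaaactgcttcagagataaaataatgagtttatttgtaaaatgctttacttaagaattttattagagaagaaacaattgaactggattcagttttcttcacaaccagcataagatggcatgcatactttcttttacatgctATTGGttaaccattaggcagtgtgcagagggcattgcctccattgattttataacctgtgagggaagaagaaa
AKR1B1, chr7:134459101-134459350, minus strand, the first of its 2 entries: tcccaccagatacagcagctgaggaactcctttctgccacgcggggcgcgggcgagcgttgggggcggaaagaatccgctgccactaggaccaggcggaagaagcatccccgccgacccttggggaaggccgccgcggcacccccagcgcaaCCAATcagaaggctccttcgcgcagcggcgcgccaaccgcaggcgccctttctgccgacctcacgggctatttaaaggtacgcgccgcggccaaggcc
The AKR1C1 and AKR1C2 sequences share 245 of 246 aligned bases, and that of the first AKR1C3 entry is 76.8% identical to AKR1C1 and 77.2% to AKR1C2. The second AKR1C3 entry, chr10:5094164-5094413, was not aligned. The CCAAT letters begin 73 to 98 bases before the start in all 4 sequences and were present in the windows of 5 of the 8 matched genes, beside 34.6% of all 35116 promoter windows of 300 bases. The first count is per gene, over all entries of a gene, and the share is per window. In the second entries the letters begin 86 bases before the start for AKR1C3 and 41 bases after it for AKR1B1. The core letters of the antioxidant response element, TGACNNNGC on either strand, were found in 1 of the 8 genes, SRD5A3, beside 13.3% of all windows. A match is a description of letters, and an absent match says nothing about a factor acting elsewhere.

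AKR1B1 was by far the most abundant of the 10 genes. AKR1B1 (ENSG00000085662.13, chr7:134442350-134459284, minus strand) encodes aldose reductase, which turns glucose into sorbitol and also reduces aldehydes and prostaglandins. In control cells AKR1B1 stood at 231 ± 26.2 FPKM (SD, n = 3), above 99.2% of the genes with a value above 0. It made up 60.5% to 66.0% of the summed FPKM of the 10 genes in every library. HSD17B4 followed with 57.9 ± 2.93 FPKM, then HSD17B10 with 28.9 ± 1.99 and HSD17B12 with 17.03 ± 1.35 FPKM (SD, n = 3 each). SRD5A1 at 9.91 ± 0.766 FPKM and AKR1C3 at 9.78 ± 1.65 FPKM could not be ordered, since their values overlapped. SRD5A3 stood at 5.66 ± 0.193 FPKM (SD, n = 3). The last genes, AKR1B10 at 0.626 ± 0.147, AKR1C1 at 0.269 ± 0.0525 and AKR1C2 at 0.214 ± 0.0173 FPKM (SD, n = 3 each), were all under 1 FPKM in every library. All other neighbours in this order were apart in all 6 libraries, except AKR1C1 and AKR1C2, whose values overlapped.

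**Figure D2:**
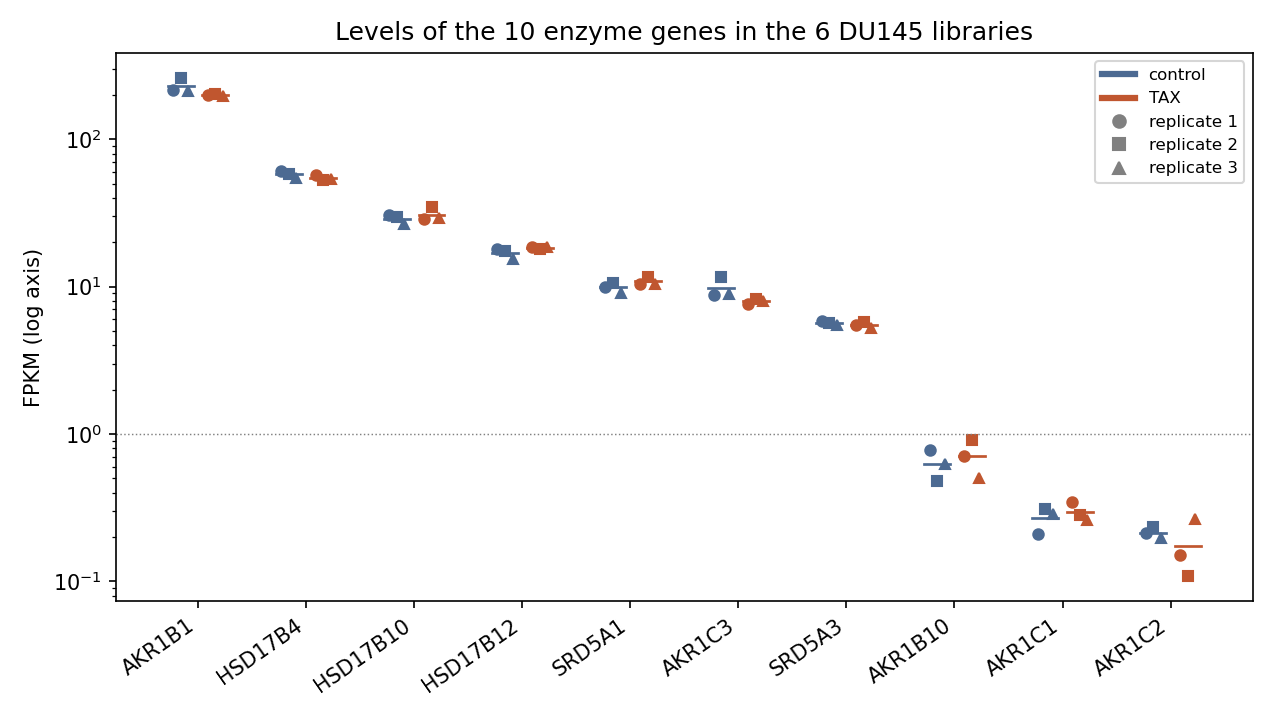
Each point is the FPKM of a gene in a single library on a log axis, blue for control and orange for TAX, with the replicate given by the symbol and the group mean by the bar; the dotted line is 1 FPKM. The 10 genes run from AKR1B1 near 200 FPKM or above to AKR1C2 between 0.108 and 0.266 FPKM, and only AKR1C3, AKR1B1 and HSD17B12 have groups that do not overlap.

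For AKR1C3 and AKR1B1 all TAX values lay below all control values, but neither passed the test adjusted over all genes. The FPKM of AKR1C3, the androgen-forming reductase, in the order of the replicate numbers was 8.73, 11.7 and 8.92 without TAX and 7.67, 8.22 and 7.93 with it. Control replicate 2 was the highest value, and the other control libraries lay close above the TAX libraries. The mean of AKR1C3 went from 9.78 ± 1.65 to 7.94 ± 0.277 FPKM (SD, n = 3 each), a ratio of 0.812. On the log2(FPKM + 1) scale used for all tests, the log2 fold change of AKR1C3 was -0.26 (standard error 0.11, 95% interval -0.49 to -0.024, unadjusted p = 0.0337, adjusted p = 0.449 from limma). Without control replicate 2 the log2 fold change of AKR1C3 was -0.14 (unadjusted p = 0.150, limma). AKR1B1 had 217, 261 and 214 FPKM in the control libraries and 199, 204 and 198 FPKM in the TAX libraries. As in AKR1C3, control replicate 2 stood above the rest. The mean of AKR1B1 went from 231 ± 26.2 to 200.3 ± 2.80 FPKM (SD, n = 3 each), a ratio of 0.867. The log2 fold change of AKR1B1 was -0.20 (standard error 0.097, 95% interval -0.41 to 0.017, unadjusted p = 0.0673, adjusted p = 0.516 from limma), and without control replicate 2 it was -0.11 (unadjusted p = 0.274). The exact two-sided permutation test gave p = 0.1 for each of both genes, the smallest that 3 against 3 allows.

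Of the genes tested 10.1% had an unadjusted p under 0.05 and 0.477% an adjusted p under 0.05, and of the 7 enzyme genes that passed the filter of 1 FPKM in 3 libraries, 1 and 0 did (limma). The gene with the unadjusted p was AKR1C3, with TAX lower, where 2.41% of all genes had such a p, and 7.73% had one with TAX higher. Log2 fold changes below 0 were found in 30.9% of all genes and in 4 of the 7. Groups without overlap and with TAX lower occurred in 3.34% of all 12359 genes tested and in 2 of these 7 genes. Those with TAX higher occurred in 14.6% of all genes and in 1 of the 7. Most genes with an unadjusted p under 0.05 were higher after TAX, 955 against 298, but after centring each library on its median they were 682 higher and 815 lower, and after quantile normalization 745 and 715. Centring brought AKR1B1 to -0.26 (unadjusted p = 0.00972, adjusted p = 0.227) and AKR1C3 to -0.32 (unadjusted p = 0.00822, adjusted p = 0.213 from limma). The median change of all genes tested was 0.054, and that of the 7 enzyme genes was -0.040. Without control replicate 3 these medians were 0.0058 and -0.061, with quantile normalization 0.0037 and -0.090, and without TAX replicate 3 they were 0.057 and -0.012. Relative to all genes, AKR1C3 lay at -0.31 and AKR1B1 at -0.25.

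**Figure D3:**
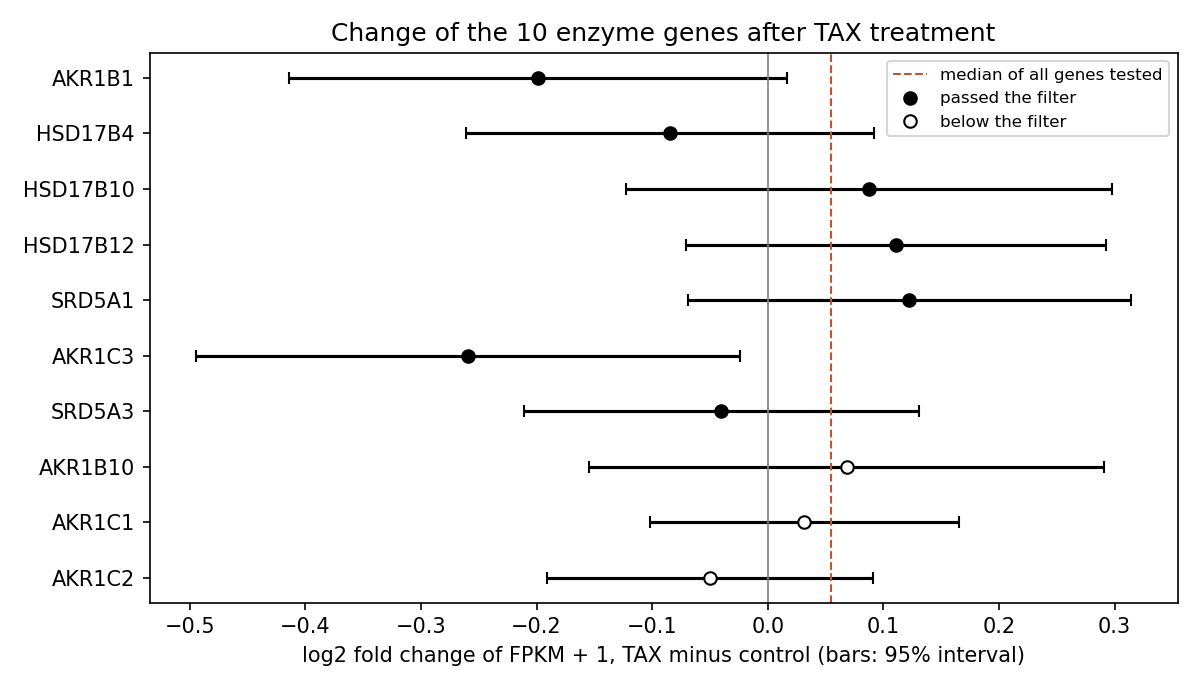
Points are log2 fold changes of FPKM + 1 (TAX minus control) with 95% intervals from limma, filled for genes that passed the filter and open for the 3 genes below it; the dashed line is the median of all genes tested, 0.054. The interval of AKR1C3, from -0.49 to -0.024, is the only one of the 10 that does not reach 0.

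AKR1C1 and AKR1C2, the close relatives of AKR1C3, were under 1 FPKM in both groups. AKR1C1, which inactivates progesterone, had 0.210, 0.311 and 0.285 FPKM in the control and 0.347, 0.283 and 0.260 FPKM in the TAX libraries. AKR1C2 had 0.213, 0.232 and 0.198 FPKM in the control and 0.150, 0.108 and 0.266 FPKM in the TAX libraries. The groups overlapped in both genes. Of the summed FPKM of the 3 AKR1C genes, AKR1C3 made up 94.9% to 95.6% in the control and 93.8% to 95.5% in the TAX libraries. AKR1B10 (ENSG00000198074.9, chr7:134527592-134541408, plus strand), a reductase of retinal and other aldehydes, had 0.773, 0.479 and 0.625 FPKM in the control and 0.713, 0.907 and 0.503 FPKM in the TAX libraries, again with overlap. These 3 genes were below the filter and were fitted with a lower filter of 0.1 FPKM over 16698 genes, of which 9.59% had an unadjusted p under 0.05. There the log2 fold changes were 0.032 for AKR1C1 (95% interval -0.10 to 0.17), -0.050 for AKR1C2 (-0.19 to 0.091) and 0.068 for AKR1B10 (-0.15 to 0.29), with adjusted p of 0.881, 0.818 and 0.844 (limma). The pseudocount of 1 holds these values near 0 whatever the ratio, so they limit the change of such low genes only weakly.

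The 17-beta-hydroxysteroid dehydrogenases differed from each other in direction, within their error. HSD17B4 (ENSG00000133835.15, chr5:119452443-119637199, plus strand), the peroxisomal multifunctional enzyme that also oxidises estradiol, had 60.5, 58.5 and 54.8 FPKM in the control and 56.9, 53.2 and 53.5 FPKM in the TAX libraries. Only control replicate 3 and TAX replicate 1 made the groups overlap. Its log2 fold change was -0.085 (95% interval -0.26 to 0.092, adjusted p = 0.729 from limma), and it had an unadjusted p of 0.0339 after median centring and 0.0275 after quantile normalization. HSD17B12 (ENSG00000149084.12, chr11:43680558-43856617, plus strand), the 3-ketoacyl-CoA reductase of fatty acid elongation that can also reduce estrone, had 18.03, 17.6 and 15.5 FPKM in the control and 18.6, 18.1 and 18.6 FPKM in the TAX libraries. Every TAX value lay above every control value, by a narrow margin over control replicate 1. The log2 fold change of HSD17B12 was 0.11 (95% interval -0.071 to 0.29, unadjusted p = 0.206, adjusted p = 0.666 from limma), and it was 0.048 without control replicate 3, 0.049 with quantile normalization and 0.053 with median centring. Exons of antisense genes lie over HSD17B12, and AC087521.2 covers 12.1% of its exonic bases on the opposite strand, so without strand information some reads cannot be told apart. AC068205.2 covers 6.25% of the exonic bases of HSD17B12 on the same strand, where strand information would not separate the reads. HSD17B10 (ENSG00000072506.12, chrX:53431258-53434373, minus strand), a mitochondrial dehydrogenase that is also a subunit of the RNase P that cuts mitochondrial tRNAs, had 30.6, 29.5 and 26.7 FPKM in the control and 28.7, 34.6 and 29.3 FPKM in the TAX libraries. TAX replicate 2 was its highest value and the groups overlapped. Its log2 fold change was 0.088 (95% interval -0.12 to 0.30, adjusted p = 0.772 from limma). Without TAX replicate 2 it was 0.0046, with quantile normalization 0.021 and with median centring 0.030.

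Neither of the 5-alpha reductases passed the test. SRD5A1 (ENSG00000145545.11, chr5:6633343-6674386, plus strand), which forms dihydrotestosterone, had 9.99, 10.6 and 9.10 FPKM in the control and 10.4, 11.7 and 10.5 FPKM in the TAX libraries. Control replicate 2 lay above TAX replicates 1 and 3, so the groups overlapped. The log2 fold change of SRD5A1 was 0.12 (95% interval -0.069 to 0.31, adjusted p = 0.652 from limma), and it was 0.068 without control replicate 3 and 0.072 without TAX replicate 2. SRD5A3 (ENSG00000128039.10, chr4:55346109-55373096, plus strand), the polyprenol reductase, had 5.86, 5.65 and 5.47 FPKM in the control and 5.48, 5.73 and 5.22 FPKM in the TAX libraries. The groups of SRD5A3 overlapped. Its log2 fold change was -0.040 (95% interval -0.21 to 0.13, adjusted p = 0.871 from limma). The FPKM ratio of SRD5A1 to SRD5A3 was 1.71, 1.88 and 1.66 in the control and 1.89, 2.04 and 2.01 in the TAX libraries, a difference given here without a test. The third gene of this type, SRD5A2, was between 0.0120 and 0.0274 FPKM in all libraries.

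**Figure D4:**
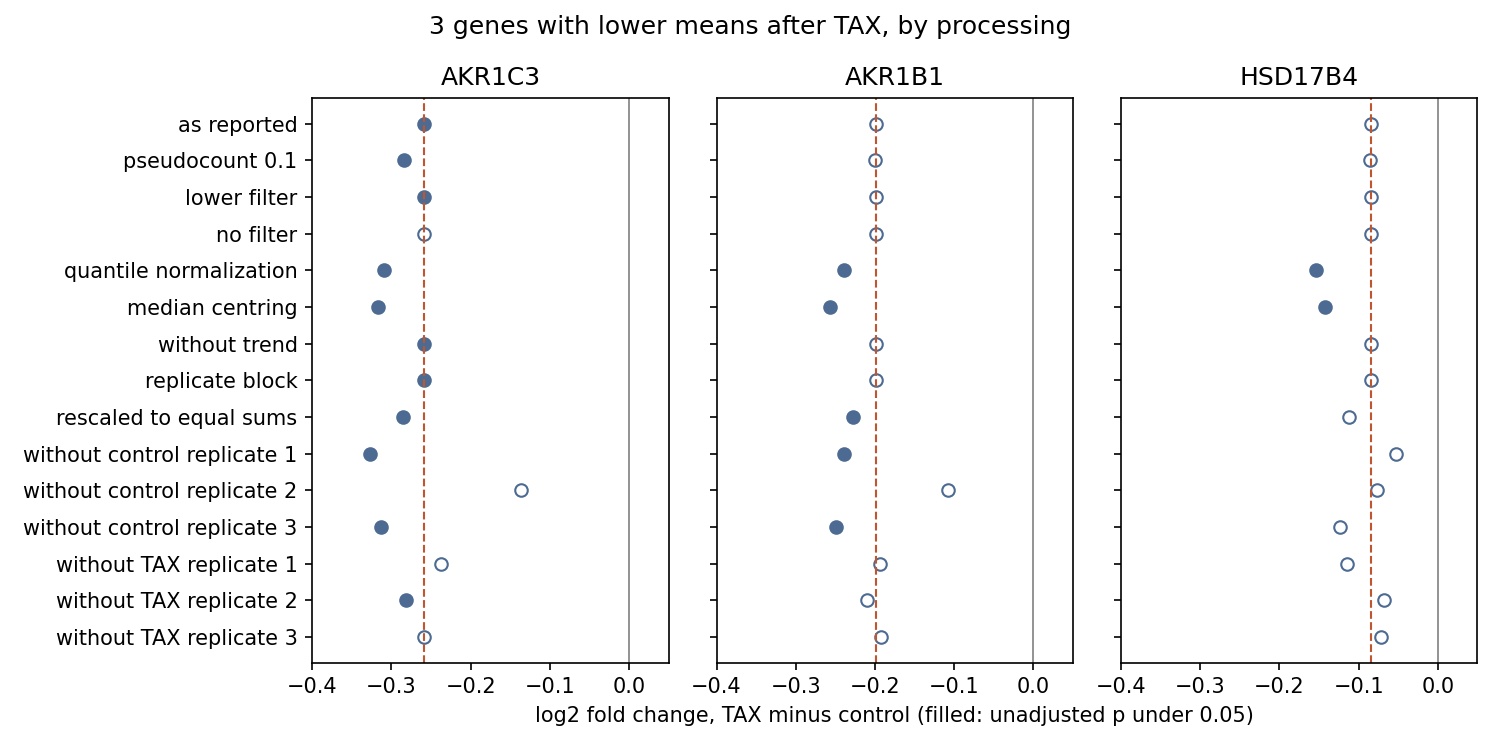
Log2 fold changes of AKR1C3, AKR1B1 and HSD17B4 (TAX minus control) as reported and under 14 other settings, filled where the unadjusted limma p was under 0.05, with the reported value as a dashed line. All values lie below 0, AKR1C3 has an unadjusted p under 0.05 in 10 of the 14 settings, AKR1B1 in 5 and HSD17B4 in 2, and the points nearest to 0 for AKR1C3 and AKR1B1 are those without control replicate 2.

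Across the 6 libraries of both groups AKR1C3 and AKR1B1 varied together, and the difference between the groups is part of this likeness. Of all named genes tested, AKR1B1 had the highest Pearson's r with the summed AKR1C1, AKR1C2 and AKR1C3 FPKM on the log2 scale, 0.991 over 6 libraries. Without control replicate 2, in which both were highest, r was 0.929 over 5 libraries, which still hold the group difference. The FPKM of AKR1B1 was 22.4 to 24.9 times that of AKR1C3 in the control and 24.8 to 26.0 times in the TAX libraries. The next genes by r were DBT (0.986), C17orf80 (0.984), HHAT (0.966) and CYBRD1 (0.966). Without control replicate 2 their r was 0.924, 0.904, 0.681 and 0.860 in the same order. With 6 libraries and 12359 genes, such values are a description of the likeness and no test.

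Related genes were taken from 11 lists that hold 159 symbols, of which 156 were in the tables and 109 passed the filter. Of these 109 genes, 4 were lower and 5 higher at an unadjusted p under 0.05 (8.26%, beside 10.1% of all genes). The split was 12 lower and 2 higher with median centring, 12 and 4 with quantile normalization, and 15 and 4 without control replicate 3. Over all genes the split in these fits was 815 lower and 682 higher (12.1% of genes), 715 and 745 (11.8%), and 688 and 710 (11.4%). Of the 109 genes, 0 had an adjusted p under 0.05 (limma). In the same fit 59 of all genes had one. Among the other aldo-keto reductases, AKR1A1, AKR1E2, AKR7A2 and KCNAB2 were tested, and 0 had an unadjusted or adjusted p under 0.05 (limma). AKR1C4 and AKR1D1 were listed at 0 in all libraries. Of the other 17-beta-hydroxysteroid dehydrogenases, HSD17B7 came nearest, an enzyme that mainly works in cholesterol synthesis. HSD17B7 had 21.1, 21.8 and 17.7 FPKM in the control and 15.8, 18.4 and 17.5 FPKM in the TAX libraries, with overlap (unadjusted p = 0.0517, adjusted p = 0.492 from limma). Of the enzymes of adrenal and gonadal steroid hormone synthesis, CYP11A1, CYP11B1, HSD3B1 and HSD3B2 were listed at 0 in all libraries. TSPO, an outer mitochondrial membrane protein linked to cholesterol import, had 46.4, 55.3 and 49.6 FPKM in the control and 60.3, 63.4 and 54.9 FPKM in the TAX libraries (log2 fold change 0.24, unadjusted p = 0.0282, adjusted p = 0.432 from limma). The groups of TSPO overlapped, and its unadjusted p was 0.0703 with median centring.

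Among the genes of steroid conjugation, hydroxylation and transport, 12 of 21 were tested and 3 had an unadjusted p under 0.05, which is 25% beside 10.1% of all genes. CYP1B1, which hydroxylates estrogens, was lower after TAX, with 9.39, 10.6 and 9.19 FPKM in the control and 7.51, 8.56 and 7.19 FPKM in the TAX libraries (log2 fold change -0.29, unadjusted p = 0.00847, adjusted p = 0.301 from limma). CYP1A1, its relative under the same aryl hydrocarbon receptor, was higher, with 0.973, 0.903 and 1.13 FPKM in the control and 1.38, 1.26 and 1.42 FPKM in the TAX libraries (log2 fold change 0.23, unadjusted p = 0.0168, adjusted p = 0.380). The groups did not overlap in CYP1B1 or in CYP1A1. CYP1A1 passed the filter of 1 FPKM in 3 libraries only through its TAX values, as control replicates 1 and 2 lay under 1 FPKM. The share of 25% counts this gene, so it is partly set by the filter. CYP3A5 was also higher (log2 fold change 0.22, unadjusted p = 0.0393, adjusted p = 0.468 from limma). The groups of CYP3A5 overlapped. With median centring the unadjusted p was 0.114 for CYP1A1 and 0.0904 for CYP3A5. The glucuronosyltransferases UGT2B15 and UGT2B17, which clear androgens in androgen-responsive prostate cells, were listed at 0 in all libraries. Of 13 steroid receptors and androgen target genes 4 were tested, and 0 had an unadjusted or adjusted p under 0.05 (limma).

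AKR1C and AKR1B10 genes are known targets of NRF2, a factor that is held down by KEAP1 and that drives antioxidant genes. NFE2L2, the gene of NRF2, had 42.2 to 62.3 FPKM and KEAP1 17.4 to 22.2 FPKM across the 6 libraries, with adjusted p of 0.970 and 0.840 (limma). Of 24 tested genes in the list of NRF2 and its targets outside the aldo-keto reductases, 12 were lower and 12 higher after TAX. Of all genes tested, 30.9% had a log2 fold change below 0. The median change of the list was 0.014, beside 0.054 for all genes tested. Beside 10.1% of all genes, 1 of the 24 had an unadjusted p under 0.05 (limma). That gene was PIR, with 20.2, 18.1 and 20.2 FPKM in the control and 16.3, 17.7 and 16.3 FPKM in the TAX libraries (log2 fold change -0.21, unadjusted p = 0.0287, adjusted p = 0.435 from limma). The target NQO1 stood at 265.5 to 291 FPKM in all libraries, and the target GPX2 at 0.0573 to 0.237 FPKM. In the same cells AKR1C3 stood at 7.67 to 11.7 FPKM, and AKR1C1, AKR1C2 and AKR1B10 at under 1 FPKM.

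In the list of other carbonyl, retinoid, polyol and prostaglandin enzymes, 18 genes were tested. PTGR1, a reductase of prostaglandins and leukotriene B4, was lower, with 120.3, 132 and 116 FPKM in the control and 103, 102 and 99.4 FPKM in the TAX libraries (log2 fold change -0.27, unadjusted p = 0.00762, adjusted p = 0.281 from limma). After quantile normalization PTGR1 had an adjusted p of 0.0403. ALDH3B1, an aldehyde dehydrogenase, was lower as well (log2 fold change -0.31, unadjusted p = 0.0153, adjusted p = 0.372 from limma). SORD, which follows AKR1B1 in the sorbitol pathway, had 16.1, 14.9 and 13.9 FPKM in the control and 15.9, 17.1 and 15.6 FPKM in the TAX libraries, with overlap.

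The partners of HSD17B4, HSD17B12, HSD17B10 and SRD5A3 in their other pathways were examined next. Beside 10.1% of all genes, 1 of the 11 genes of peroxisomal oxidation (9.09%) had an unadjusted p under 0.05 (limma). It was ACOX2, an oxidase of bile acid precursors and branched fatty acids, with 2.69, 2.08 and 2.16 FPKM in the control and 3.53, 3.82 and 3.29 FPKM in the TAX libraries (log2 fold change 0.46, unadjusted p = 0.000556, adjusted p = 0.0859 from limma), the smallest p of all 11 lists. Of the 9 genes of fatty acid elongation and of the 6 genes of mitochondrial RNase P and isoleucine breakdown, 0 had an unadjusted or adjusted p under 0.05 (limma). The 9 tested genes of dolichol synthesis and early N-glycosylation had a median change of 0.077, beside 0.054 for all genes tested, and DHDDS, a subunit of the enzyme that builds the dolichol chain, had an unadjusted p of 0.0168 (log2 fold change 0.22, adjusted p = 0.380 from limma).

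**Figure D5:**
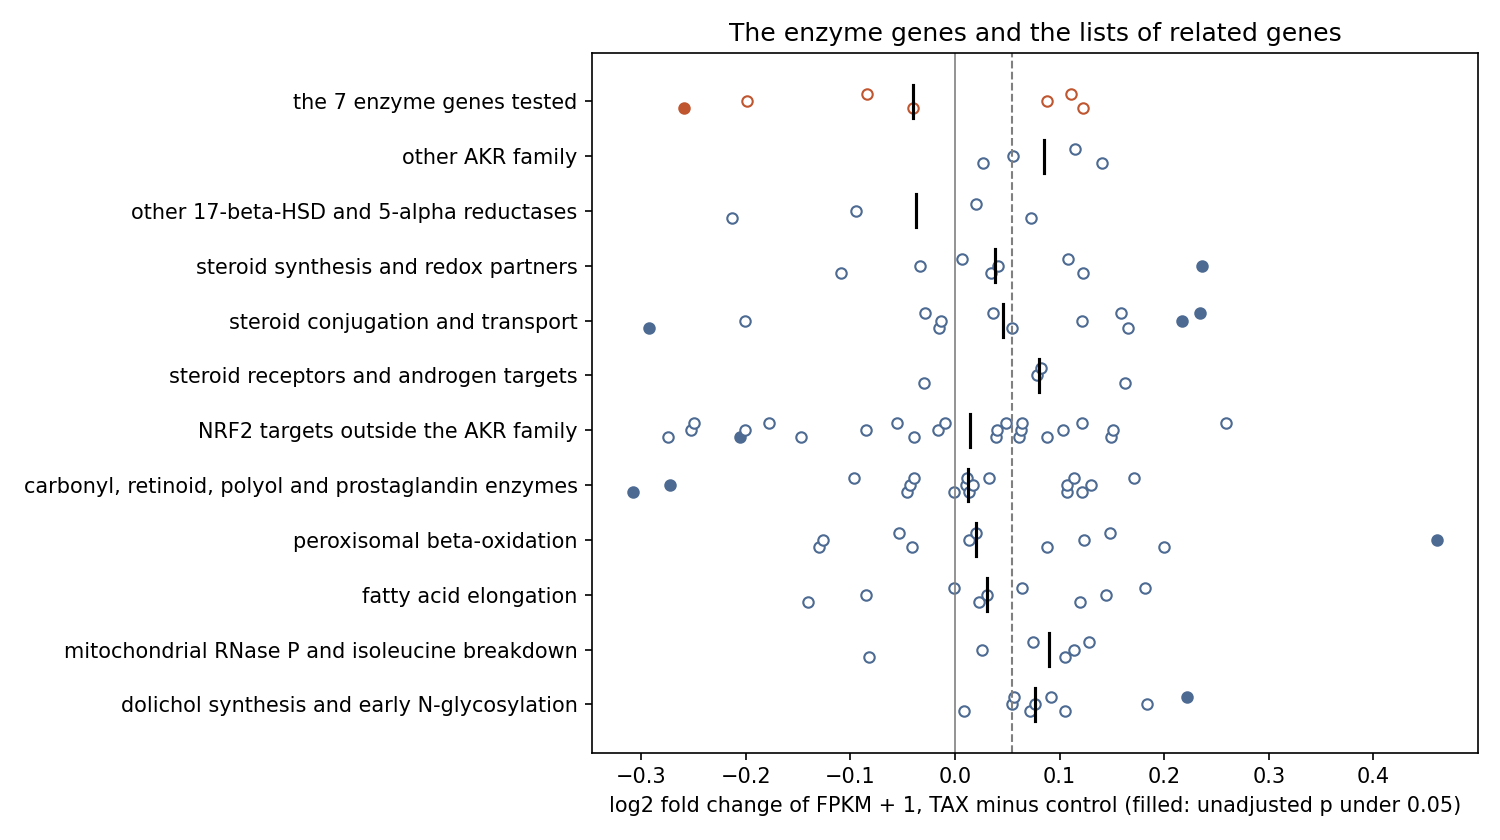
Each point is the log2 fold change of a tested gene (TAX minus control), filled at an unadjusted limma p under 0.05, for the 7 enzyme genes that passed the filter (orange) and the 11 lists of related genes (blue). Black bars are medians and the dashed line is the median of all genes tested. ACOX2, at 0.46, is the point farthest to the right, and AKR1C3, at -0.26, is the only filled point of the enzyme genes.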

How the data were processed

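RNA of 3 control and 3 TAX-treated DU145 cultures was sequenced from mRNA libraries. The authors deposited a table of values per library, taken here as FPKM because the sums differ between libraries and low values are decimals, although TPM is not wholly excluded. The submitters' processing notes name HISAT2 2.2.0, StringTie 2.1.2 and GRCh38. Their roles, the annotation, the strand setting and the treatment of reads with several matches are not given in the sources used here. Without counts the depth is unknown and no counting interval can be given. Of the 23062 identifiers, 3130 carry no gene name. The dose is from the study's methods, as the labels give it only as the IC50.

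Values were compared as log2(FPKM + 1) with limma 3.58.1 in R 4.3.3 (moderated test with trend), for genes with at least 1 FPKM in 3 of 6 libraries, and p-values were adjusted over all 12359 genes by the Benjamini-Hochberg method. Single genes were also tested by an exact two-sided permutation test. The code was checked on simulated data. Positions and transcripts came from GENCODE 29, sequences before start sites from RefSeq, and alignments used Biopython 1.88. The enzyme genes and the lists were chosen with earlier results of these data known. Named beside the 10 enzyme genes were, from each list, up to 6 genes with an unadjusted p under 0.05, NFE2L2 and KEAP1 for their level, and the 5 genes most alike to the summed AKR1C genes. Genes named outside this rule (HSD17B7, SRD5A2, SORD, NQO1, GPX2, the tested aldo-keto reductases, and genes listed at 0) were chosen after their values were seen. Alternatives were another pseudocount, other filters, quantile normalization, median centring, no trend, a replicate block, and leaving out each library. Rescaling to equal sums was added after seeing the data. Some genes of the lists are not reported here.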

Additional observations from a re-analysis of the deposited data

How the results depend on the processing

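All 7 tested enzyme genes kept their direction in all 14 alternatives, and none had an adjusted p under 0.05 in any of them. The number of enzyme genes with an unadjusted p under 0.05, 1 as reported, was 0 with no filter, 3 with quantile normalization, 3 with median centring, 2 after rescaling to equal sums, and 0 to 2 when single libraries were left out. Of all genes in these fits, 9.14%, 11.8%, 12.1%, 12.6% and, without single libraries, 6.29% to 13.3% had such a p. The number was 0 without control replicate 2, TAX replicate 1 or TAX replicate 3. The adjusted p of AKR1C3 ranged from 0.213 to 0.824 and that of AKR1B1 from 0.207 to 0.864. Below the filter, AKR1C1 turned to -0.013 with median centring and ranged from -0.0022 (without control replicate 1) to 0.056 with single libraries left out, AKR1B10 from -0.015 (without TAX replicate 2) to 0.16, and AKR1C2 from -0.11 (without TAX replicate 3) to -0.0091 (without TAX replicate 2). With a pseudocount of 0.1 the values of AKR1C1, AKR1C2 and AKR1B10 were 0.11, -0.23 and 0.14. Of the list genes, 9 had an unadjusted p under 0.05 as reported, 16 with quantile normalization, 14 with median centring, and 5 to 19 when single libraries were left out, the lowest without TAX replicate 3 and the highest without control replicate 3. TSPO, PIR, DHDDS, ALDH3B1, CYP1A1 and CYP3A5 each had an unadjusted p over 0.05 in at least 1 fit without a library. Over all genes, 59 had an adjusted p under 0.05, against 1 with no filter, 37 with the lower filter, 95 with quantile normalization, 96 with median centring and 18 to 43 without single libraries. Without control replicate 3, which had the lowest median, unadjusted calls were 688 lower and 710 higher, against 298 and 955. The causes were not tested.

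Whether same-numbered samples were grown or handled as pairs is not given. Deviations from the group mean correlated at -0.12, -0.33 and -0.17 in same-numbered libraries. In libraries with different numbers they correlated at -0.17 to 0.29. With 3 libraries per group, these values cannot decide whether the samples were paired. With the replicate number as a block, 26 genes had an adjusted p under 0.05, and of the enzyme genes 1 had an unadjusted and 0 an adjusted p under 0.05. Of all genes tested in this fit, 7.86% had an unadjusted p under 0.05 (limma).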
